A study of Homo sapiens with 10 samples.

Results

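YAP1, WWTR1, TEAD1, LATS1, LATS2, AMOTL2, AJUBA, CTGF, CYR61 and ANKRD1 are 10 genes of the Hippo pathway and its YAP-TEAD output. They were taken by symbol from the gene counts, and all 10 were present among 19215 gene symbols and among the 13349 genes that could be tested. RNA was sequenced from 10 libraries of HepG2 and SK-Hep1, both given by the labels as human hepatocellular carcinoma lines. Each line carried a lentiviral tough decoy (TuD), an RNA that binds and blocks a microRNA, directed either at miR-17 (miR-17 TuD) or at no stated target (negative control, NC TuD). There were 3 libraries for each arm of HepG2 and 2 for each arm of SK-Hep1. All 4 groups shared the same handling: 48 h with virus and 10 µg/mL polybrene (multiplicity of infection, the infectious particles per cell, of 5), 2 weeks of 1 µg/mL puromycin, and 10% serum. Resistant colonies were then pooled, so each group is 1 stable line. Decoy and line history therefore cannot be told apart. Nothing says that the replicates were separate cultures, so p-values measure the spread between these libraries, which may be technical.

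In the Hippo pathway the kinases LATS1 and LATS2 phosphorylate the coactivators YAP1 and TAZ (encoded by WWTR1), which are then held in the cytoplasm or degraded. Unphosphorylated YAP1 and TAZ enter the nucleus, bind TEAD factors such as TEAD1 and switch on genes that include CTGF, CYR61 and ANKRD1. In the liver the pathway is known for restraining organ size and tumour growth, and the activity of YAP1 is set largely by its phosphorylation and location, which transcript levels do not report.

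The seed of miR-17, bases 2 to 8, is shared by 8 human mature microRNAs in RefSeq, miR-17 included (GRCh38.p14). The mature miR-17 lies at chr13:91350618-91350640 on the plus strand. It is shown with 3 of the microRNAs that share its seed, given in capitals, because the series describes the decoy as an inhibitor of the whole family.
hsa-miR-17-5p: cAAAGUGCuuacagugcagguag
hsa-miR-20a-5p: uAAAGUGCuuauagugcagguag
hsa-miR-93-5p: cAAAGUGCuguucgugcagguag
hsa-miR-106b-5p: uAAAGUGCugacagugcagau

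Of the 10 genes, only AJUBA held a 7- or 8-base match to this seed in its longest 3′ untranslated region (GENCODE 29, GRCh38), where the match was looked for as GCACTTT on the transcribed strand. Among all 17873 genes searched, 21.6% held one. The AJUBA match lies at chr14:22971930-22971936 on the minus strand, and the capitals mark the 7 bases that pair with the seed.
AJUBA 3′ site: tcaaatttgcaGCACTTTgtaaatgatg

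The promoter windows of RefSeq (250 bases before to 50 after a gene's start) were searched on both strands for GGAATG, the core of the motif bound by TEAD factors. The table held windows for 8 of the 10 genes; TEAD1 and CYR61 had no entry. The motif was present in a window of 6 genes (YAP1, LATS2, AMOTL2, AJUBA, CTGF and ANKRD1), against 14% of all 35116 windows. Some genes had more than 1 window, so the share per gene is not on the same footing as the share per window. CTGF (CCN2 in RefSeq) held 3 matches, at 169, 104 and 95 bases before the start, and 0.128% of all windows held 3 or more. ANKRD1 held 2. Of the targets CTGF, CYR61 and ANKRD1, the stretches of the 2 that changed in HepG2 are shown. AMOTL2, which also changed there, held 1 match and is not shown. Capitals mark the motif, and both genes shown lie on the minus strand.
CTGF, chr6:131951524-131951553: ttttcagacggaGGAATGctgagtgtcaag
CTGF, chr6:131951455-131951483: gtggggaGGAATGcgaGGAATGtccctgt
ANKRD1, chr10:90921290-90921319: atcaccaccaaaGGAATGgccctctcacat
ANKRD1, chr10:90921198-90921227: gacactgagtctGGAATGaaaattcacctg

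Each library held 12884225 to 15076431 gene counts, so 1 count was worth 0.0657 to 0.0795 CPM (counts scaled to library size with TMM factors). Within groups the coefficient of variation of the 10 genes had a median of 2.90% and ran from 0.587% to 10.5%. The 10 hepatocyte markers summed to between 48205 and 57507 CPM in HepG2 and between 74.4 and 105.4 CPM in SK-Hep1. SK-Hep1 is often described as endothelial in origin, but its 10 endothelial markers summed to at most 1.05 CPM, none reached 1 CPM, and 5 were at 0 in each arm, PECAM1 among them. Between the lines 43.9% of tested genes were called higher and 42.8% lower in SK-Hep1 in NC TuD, and 44.1% and 43.1% in miR-17 TuD. Of 10 mesenchymal markers, 7 were called higher and 3 lower in SK-Hep1 in both arms (edgeR, adjusted p below 0.05). Their sum was 17682 to 19322 CPM in SK-Hep1 and 14997 to 16331 CPM in HepG2, with VIM, a filament protein, at 0.602 to 2.96 CPM in HepG2 and 8696 to 9622 CPM in SK-Hep1, and FN1, fibronectin, at 14722 to 16052 CPM in HepG2 and 5926 to 6672 CPM in SK-Hep1. The counts do not measure mature miR-17, so they hold no direct check of the decoy.

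The first question was how far the pathway itself was expressed in each line. Compared per kilobase of exon, CTGF had the highest level of the 10 genes in HepG2 NC TuD (176 ± 3.27 CPM per kb, SD, n = 3), followed by ANKRD1 (75.1 ± 3.03) and AJUBA (53.8 ± 0.772). In SK-Hep1 NC TuD the highest level was that of CYR61 (374 ± 8.22 CPM per kb, SD, n = 2), followed by ANKRD1 (121 ± 8.67) and AMOTL2 (101 ± 0.891). CTGF was below all of these there (72.0 ± 4.65). LATS2 and LATS1 were the 2 lowest in all 4 groups, at 3.87 to 7.90 CPM per kb. Neighbours in the order overlapped in TEAD1 and AMOTL2 in both HepG2 arms and nowhere else.

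**Figure D1:**
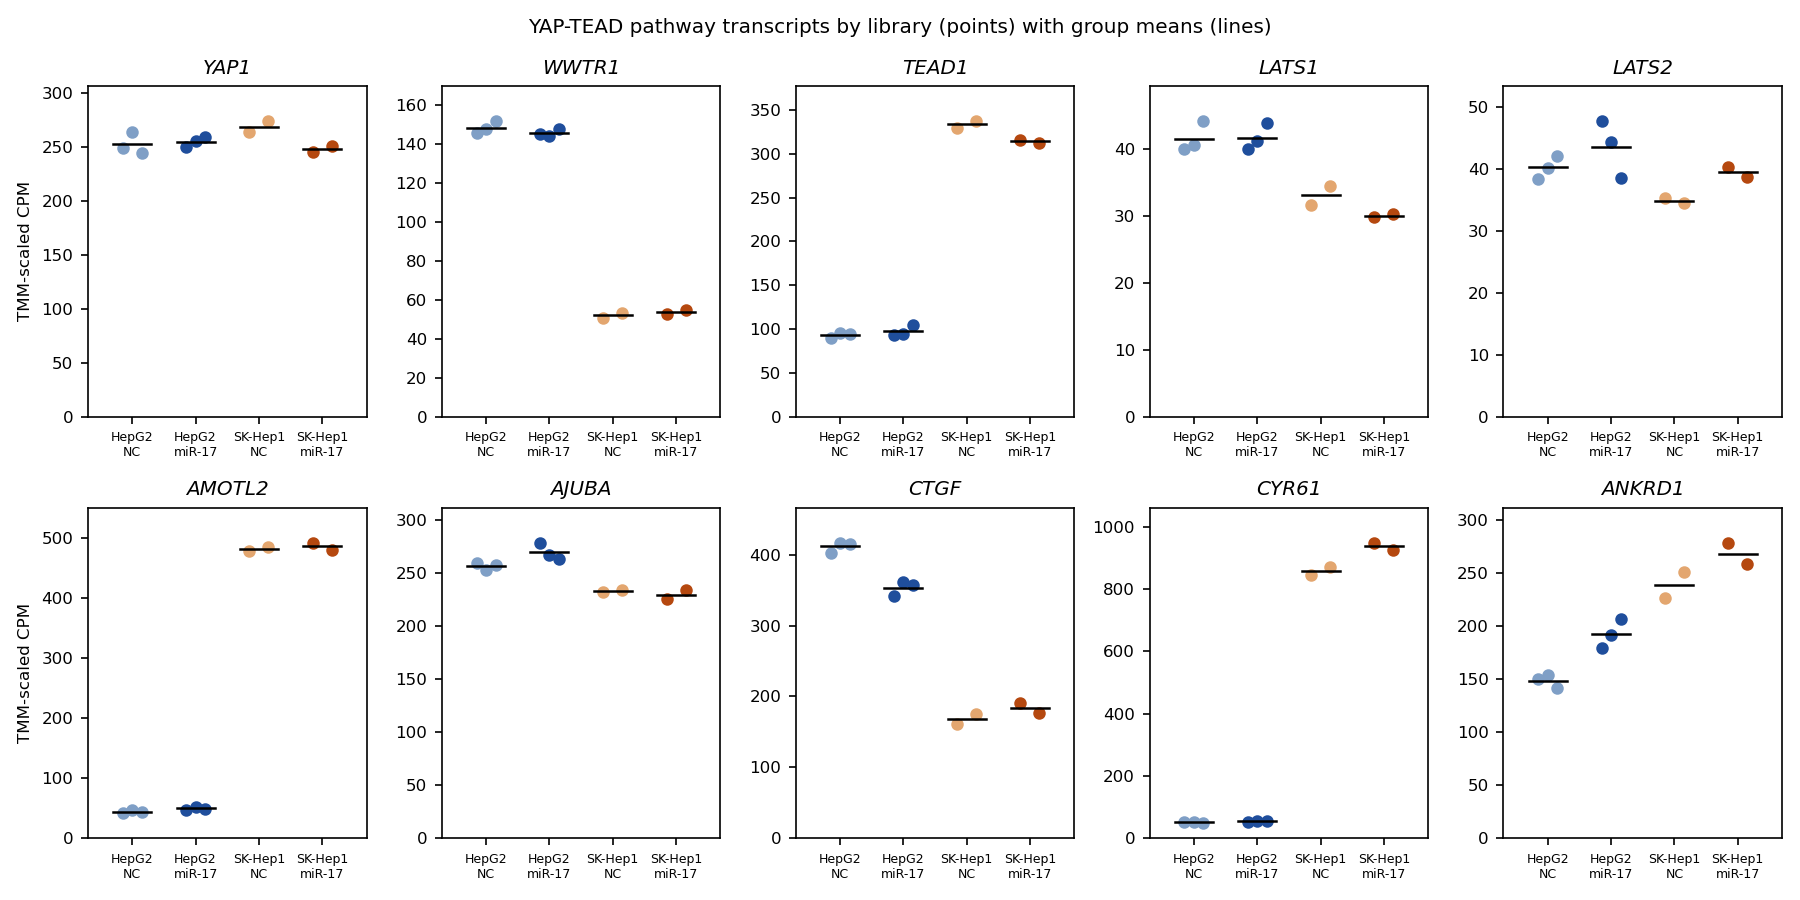
TMM-scaled CPM (linear axes from 0) of the 10 genes in each library, with points for libraries and black lines for group means. CYR61 stands at 49.1 to 56.3 CPM in all HepG2 libraries and at 844 to 948 CPM in all SK-Hep1 libraries, while YAP1 stays between 244 and 273 CPM throughout.

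The coactivators and their TEAD partner come first. YAP1 measured 249, 264 and 244 CPM in HepG2 NC TuD and 249, 255 and 259 CPM in HepG2 miR-17 TuD. In SK-Hep1 it measured 264 and 273 CPM in NC TuD and 245 and 251 CPM in miR-17 TuD. Its arms overlapped in HepG2 and did not overlap in SK-Hep1, where the log2 fold change was -0.11 ± 0.05 (SE; adjusted p = 0.421, edgeR). WWTR1 read 145, 148 and 151 CPM in HepG2 NC TuD and 145, 144 and 148 CPM in HepG2 miR-17 TuD, against 50.7 and 53.4 CPM in SK-Hep1 NC TuD and 52.8 and 54.9 CPM in SK-Hep1 miR-17 TuD. All HepG2 libraries were above all SK-Hep1 libraries, and the arms of each line overlapped. TEAD1 read 89.4, 95.6 and 94.9 CPM in HepG2 NC TuD and 93.0, 94.8 and 105.2 CPM in HepG2 miR-17 TuD, against 330 and 337 CPM in SK-Hep1 NC TuD and 316 and 313 CPM in SK-Hep1 miR-17 TuD. It was higher in every SK-Hep1 library than in any HepG2 library, and its arms overlapped in HepG2 but not in SK-Hep1. The ratio of YAP1 to WWTR1 on the per-kilobase scale was 1.62 ± 0.0821 in HepG2 NC TuD and 4.92 ± 0.0521 in SK-Hep1 NC TuD.

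The kinases and regulators follow. LATS1, a kinase that phosphorylates YAP1, ran from 40.0 to 44.1 CPM in the HepG2 libraries of both arms, which overlapped almost fully. In SK-Hep1 it measured 31.7 and 34.5 CPM in NC TuD and 29.9 and 30.2 CPM in miR-17 TuD, without overlap. LATS2, its paralogue and itself a YAP-TEAD target, measured 38.4, 40.2 and 42.1 CPM in HepG2 NC TuD and 47.7, 44.3 and 38.6 CPM in HepG2 miR-17 TuD. Replicate 3 of the latter was the low one, and the HepG2 arms overlapped. In SK-Hep1 LATS2 measured 35.3 and 34.5 CPM in NC TuD and 40.3 and 38.7 CPM in miR-17 TuD, with both miR-17 TuD libraries above both NC TuD libraries. AMOTL2, a scaffold that binds YAP1 and is also a YAP target, measured 41.4, 46.4 and 44.0 CPM in HepG2 NC TuD and 47.2, 52.6 and 49.4 CPM in HepG2 miR-17 TuD. In SK-Hep1 AMOTL2 measured 478 and 484 CPM in NC TuD and 491 and 480 CPM in miR-17 TuD, so its arms overlapped there and did not in HepG2. AJUBA, a LIM protein that restrains LATS kinases and holds the seed match above, ran from 252.9 to 260.1 CPM in HepG2 NC TuD and from 263 to 279 CPM in HepG2 miR-17 TuD. In SK-Hep1 it ran from 233 to 235 CPM in NC TuD and from 226 to 234 CPM in miR-17 TuD, where the arms overlapped.

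Of the targets, CTGF and ANKRD1 had the largest responses of the 10 genes in HepG2, in opposite directions. CTGF, a secreted matricellular protein, measured 403, 416 and 416 CPM in HepG2 NC TuD and 342, 361 and 357 CPM in HepG2 miR-17 TuD, with every miR-17 TuD library below every NC TuD library. In SK-Hep1 it measured 161 and 176.0 CPM in NC TuD and 190 and 176.9 CPM in miR-17 TuD, and the nearest libraries of the arms all but touched. ANKRD1, a cofactor of transcription induced in stressed muscle and a standard YAP readout, measured 150.2, 153.6 and 142.0 CPM in HepG2 NC TuD and 179.2, 191.8 and 206.4 CPM in HepG2 miR-17 TuD. The arms were apart in HepG2, and in SK-Hep1 they were also apart, at 226.5 and 250.8 CPM in NC TuD against 278 and 258 CPM in miR-17 TuD. CYR61, a secreted protein of the same family as CTGF, measured 52.2, 52.1 and 49.1 CPM in HepG2 NC TuD and 52.5, 55.1 and 56.3 CPM in HepG2 miR-17 TuD. In SK-Hep1 CYR61 measured 844 and 871 CPM in NC TuD and 948 and 927 CPM in miR-17 TuD. Its arms did not overlap in either line.

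Against this spread, 3 of the 10 genes changed in HepG2 at an adjusted p below 0.05 (edgeR's quasi-likelihood test, Benjamini-Hochberg over 13349 genes, two-sided), with 19.3% of all tested genes called. ANKRD1 rose by 0.37 ± 0.05 in log2 (1.29-fold, adjusted p = 3.362e-08), higher in 3 of 3 libraries. AMOTL2 rose by 0.18 ± 0.06 (1.13-fold, adjusted p = 0.0143). CTGF fell by 0.22 ± 0.04 (adjusted p = 7.890e-06), lower in 3 of 3 libraries. The 2 rises and the fall stand against 10.7% of tested genes called higher and 8.58% called lower. The AMOTL2 call was lost when NC TuD replicate 1 was left out (adjusted p = 0.127), and likewise for miR-17 TuD replicate 2 (adjusted p = 0.125). CTGF and ANKRD1 kept their calls under all 13 alternatives.

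The other 7 genes did not pass the test in HepG2. CYR61 stood at 0.10 ± 0.05 (adjusted p = 0.201), with a 95% interval of -0.0066 to 0.20, and its arms did not overlap. AJUBA stood at 0.07 ± 0.04 (adjusted p = 0.201; interval -0.0048 to 0.14), also without overlap. LATS2 stood at 0.12 ± 0.07 (adjusted p = 0.244), and without miR-17 TuD replicate 3 it passed (adjusted p = 0.0303). TEAD1, WWTR1, YAP1 and LATS1 lay between -0.02 and 0.07, with 95% intervals inside -0.13 and 0.16. The arms did not overlap in 5 of the 10 genes, against 31% of tested genes.

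In SK-Hep1 no member of the set passed the test in edgeR or in DESeq2, with 0.869% of all tested genes called (0.667% higher and 0.202% lower). At an unadjusted p below 0.05 edgeR gave 5 of the 10 genes, against 8.36% of all genes. These were LATS2 (0.18 ± 0.08), ANKRD1 (0.17 ± 0.05), CYR61 (0.13 ± 0.04), CTGF (0.12 ± 0.05) and YAP1 (-0.11 ± 0.05). The arms did not overlap in 7 of the 10, against 40.4% of tested genes, which 2 libraries per arm make a weak criterion. Fitted on the SK-Hep1 libraries alone, CYR61 (adjusted p = 0.000820) and ANKRD1 (adjusted p = 0.00991) passed. Over that result's 11 alternatives the adjusted p of CYR61 reached 0.751 and that of ANKRD1 reached 0.892.

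**Figure D2:**
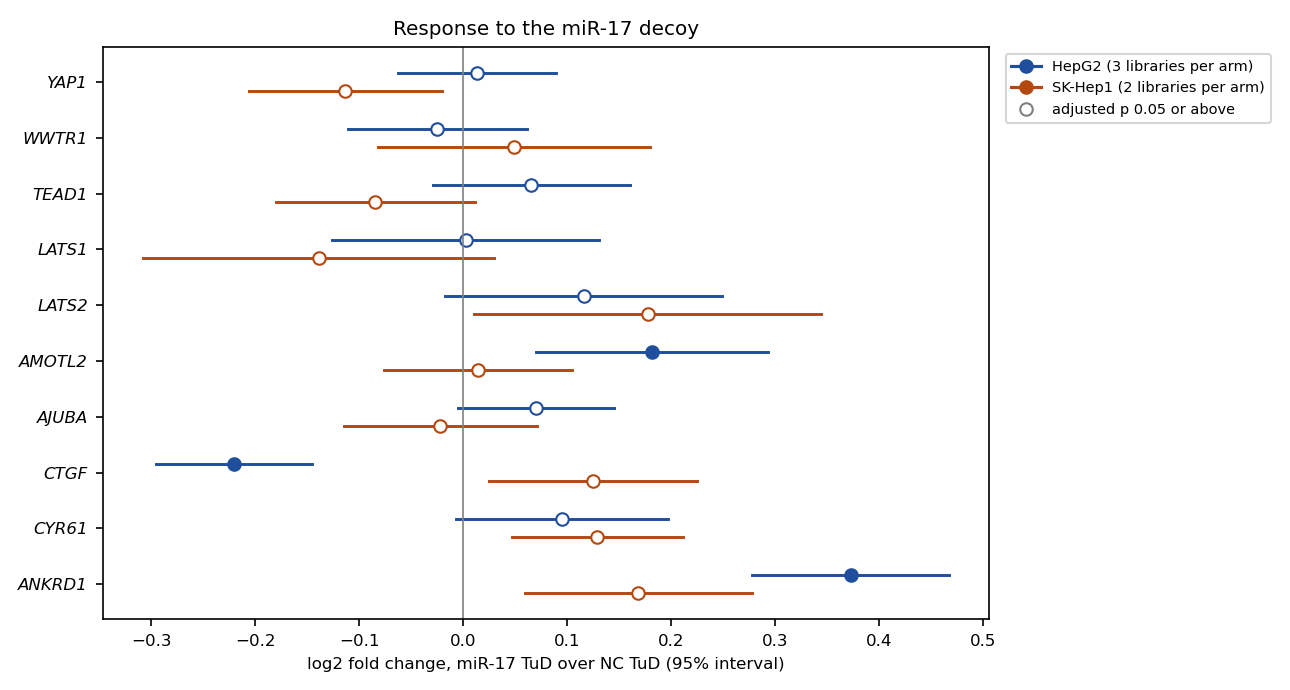
Log2 fold change of miR-17 TuD over NC TuD for the 10 genes in HepG2 (blue) and SK-Hep1 (orange), with 95% intervals; filled points have an adjusted p below 0.05. CTGF lies at -0.22 in HepG2 and 0.12 in SK-Hep1, on opposite sides of 0.

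The difference between the responses of the lines was tested as an interaction. It was called for CTGF alone among the 10 genes, with 3.75% of tested genes called. The SK-Hep1 response of CTGF exceeded that of HepG2 by 0.35 ± 0.06 in log2 (adjusted p = 0.000161). The call held under all 16 alternatives, whose adjusted p ran from 5.374e-06 to 0.0139. For ANKRD1 the difference was -0.20 ± 0.07 (adjusted p = 0.111; 0.0364 to 0.528 over the alternatives), and for CYR61 it was 0.03 ± 0.07 (adjusted p = 0.897). Hepatocyte markers differed between the SK-Hep1 arms as well: of 10, 4 fell and 1 rose by edgeR, against 0.202% and 0.667% of all tested genes. These markers summed to 84.7 to 105.4 CPM in NC TuD (1 at 0) and 74.4 to 79.8 CPM in miR-17 TuD (2 at 0). ALB, which encodes albumin, had 59 and 113 counts in SK-Hep1 NC TuD and 0 and 4 in SK-Hep1 miR-17 TuD, while FGB, a fibrinogen chain, had 2 and 2 counts against 9 and 12. Most of the sum was SERPINA1, at 64.9 CPM in SK-Hep1 NC TuD and 68.7 CPM in SK-Hep1 miR-17 TuD. In SK-Hep1 NC TuD, ALB stood at 0.0305% to 0.0547% of its HepG2 NC TuD mean. The same share of CTGF in HepG2 NC TuD is at most 0.225 CPM. The part of these markers in the CTGF result was not tested.

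The lines differed far more than the arms. In NC TuD all 10 genes were called, 5 higher in SK-Hep1 and 5 lower, against 86.7% of tested genes called (43.9% higher and 42.8% lower). In miR-17 TuD, with no library in common, 8 of the 10 were called, 4 higher and 4 lower, against 87.3% (44.1% higher and 43.1% lower). With shares this high a call says little, and the sizes carry the comparison. The median absolute difference of the 10 genes in NC TuD was 0.99 in log2, against 0.86 over all tested genes, and in miR-17 TuD it was 0.71 against 0.86, so the 10 genes lay above all genes in one arm and below them in the other.

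CYR61 was 16.8-fold higher in SK-Hep1 in NC TuD (log2 4.07 ± 0.04, adjusted p = 5.570e-60, edgeR) and 17.2-fold higher in miR-17 TuD. AMOTL2 was 11.0-fold and 9.76-fold higher, and TEAD1 was 3.57-fold and 3.22-fold higher. ANKRD1 was 1.61-fold and 1.39-fold higher. In the other direction, WWTR1 stood at -1.51 ± 0.05 in NC TuD and -1.43 ± 0.05 in miR-17 TuD, and CTGF at -1.29 ± 0.04 and -0.94 ± 0.04. CTGF and CYR61, both secreted targets of YAP-TEAD, thus lay on opposite sides. Their ratio per kilobase was 7.89 ± 0.368 in HepG2 NC TuD and 0.192 ± 0.0082 in SK-Hep1 NC TuD.

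Smaller differences were seen in the kinases and in AJUBA. LATS1 stood at -0.33 ± 0.07 in NC TuD and -0.47 ± 0.08 in miR-17 TuD, and AJUBA at -0.14 ± 0.04 and -0.23 ± 0.04, all called. LATS2 was called in NC TuD (-0.21 ± 0.08, adjusted p = 0.0110) and not in miR-17 TuD (-0.14 ± 0.07, adjusted p = 0.0654). YAP1 was the least different of the 10, at 0.09 ± 0.04 in NC TuD (adjusted p = 0.0434, lost in 8 of 12 alternatives, 3 of which each left out 1 library) and -0.04 ± 0.04 in miR-17 TuD. The 3 libraries were HepG2 NC TuD replicates 1 and 3 and SK-Hep1 NC TuD replicate 2, with adjusted p of 0.102, 0.151 and 0.261. The LATS2 call in NC TuD was lost when HepG2 NC TuD replicate 3 or SK-Hep1 NC TuD replicate 2 was left out (adjusted p at most 0.0705).

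**Figure D3:**
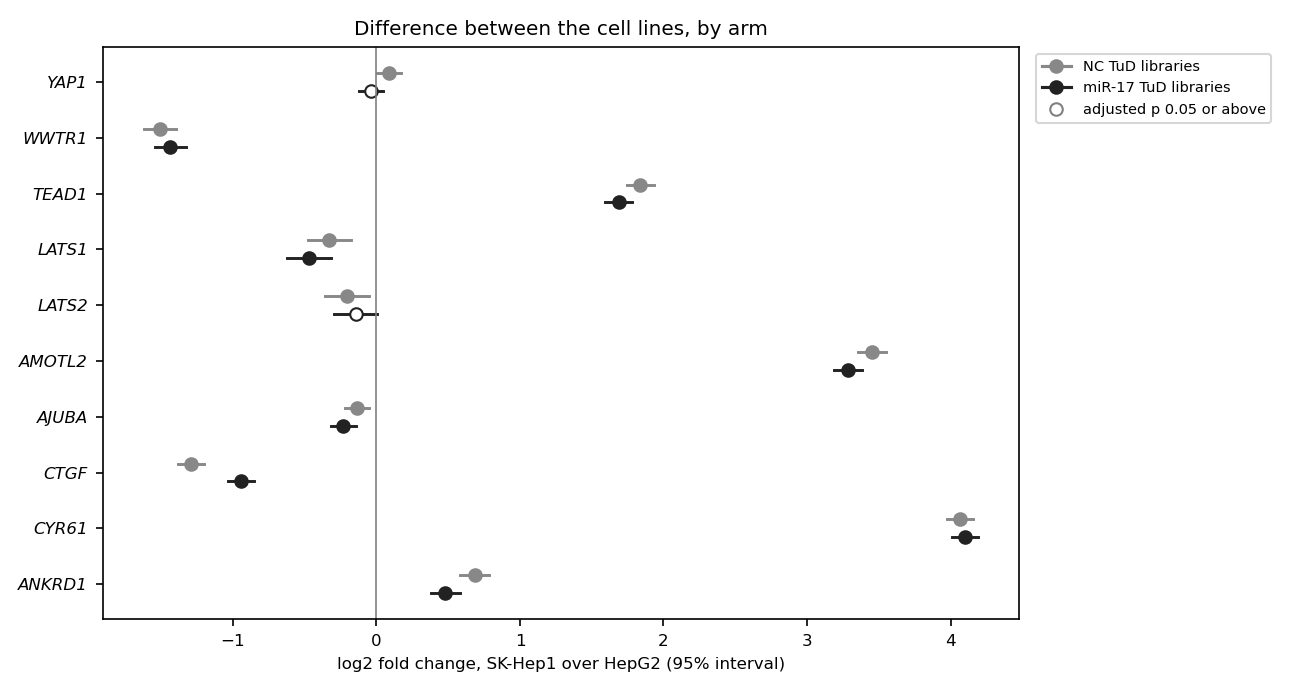
Log2 fold change of SK-Hep1 over HepG2 for the 10 genes in the NC TuD libraries (grey) and the miR-17 TuD libraries (black), with 95% intervals; open points did not pass the test. CYR61 and AMOTL2 lie above 3 in both arms, WWTR1 lies below -1.4 in both, and YAP1 is near 0.

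The rest of the pathway was read from lists. Of 30 further Hippo kinases, scaffolds and upstream regulators, 9 rose and 2 fell in HepG2, with a median of 0.08 against 0 over all genes, of which 10.7% rose and 8.58% fell. Those that rose included TAOK2 (0.34 ± 0.05), a kinase upstream of the core cassette, and MOB1A (0.20 ± 0.05), the LATS coactivator. AMOT, a YAP1-binding scaffold, went from 1.60 ± 0.190 to 3.07 ± 0.209 CPM (0.93 ± 0.23, adjusted p = 0.00200), and did not pass on the deposited log2 matrix (adjusted p = 0.0978). FAT1, a large cadherin, rose by 0.14 ± 0.03 in HepG2 (adjusted p = 0.00172, and 0.0504 without NC TuD replicate 1). In SK-Hep1, TAOK2 (0.25 ± 0.06, adjusted p = 0.0251) was the 1 gene of the 30 called. Its call was lost in 3 of the 4 fits that left out a library, namely NC TuD replicate 1 (adjusted p = 0.269), NC TuD replicate 2 (0.138) and, of the other arm, replicate 1 (0.504). It was also lost on the deposited log2 matrix (adjusted p = 0.0873) and with the replicate block (0.165). None of the 5 tested TEAD family members and cofactors (7 listed) passed in either response.

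Of 20 further genes of a YAP-TEAD target signature, 6 rose and none fell in HepG2 by edgeR, against 10.7% and 8.58% of all tested genes, with a median of 0.09. They included THBS1, DOCK5, AXL and F3 (0.36 ± 0.10). THBS1, which encodes thrombospondin, went from 336 ± 5.80 to 371 ± 5.43 CPM in HepG2 (0.14 ± 0.03, adjusted p = 0.00108). DOCK5 (0.22 ± 0.05), the receptor kinase gene AXL (0.26 ± 0.07) and F3 were no longer called without HepG2 NC TuD replicate 1 (adjusted p = 0.0526, 0.112 and 0.0892), and AXL was not called without miR-17 TuD replicate 2 either (0.0731). CTGF fell in the same libraries.

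In SK-Hep1, 3 of the 20 rose and none fell, against 0.667% and 0.202% of all tested genes, with a median of 0.05. Those that rose included FJX1 and F3. FJX1, a secreted Fat pathway protein, rose by 0.28 ± 0.06 (adjusted p = 0.00662). F3, which encodes tissue factor, rose by 0.33 ± 0.07 (adjusted p = 0.00768). The calls of FJX1 and F3 were each lost in 3 of the 4 fits without 1 library, with adjusted p of 0.101 to 0.398 for FJX1 (every library but miR-17 TuD replicate 2) and 0.0790 to 0.435 for F3 (every library but NC TuD replicate 2). Both were also lost on the deposited log2 matrix (adjusted p = 0.813 for FJX1 and 0.255 for F3) and with the replicate block (0.0728 and 0.0516). Serum and immediate early genes, which respond to culture handling and share regulators with YAP targets, moved beside these lists: 3 of 12 tested rose and 1 fell in HepG2 (all genes 10.7% and 8.58%), and 2 rose in SK-Hep1 (all genes 0.667%). Their part in the results was not tested.

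Between the lines the signature was higher in SK-Hep1 in 19 of 20 genes in NC TuD, against 43.9% of all tested genes. The median was 3.60 in log2, against 0.02 over all genes. The 1 gene at 0 counts, RBMS3, lies above that median at its lower bound too, so the bound could not move the median. CCDC80, a matrix protein, had 2 counts over the 3 HepG2 NC TuD libraries and 10725 over the 2 of SK-Hep1, a ratio of 7284 (exact interval 2016 to 60155, counting error only). FOXF2, a mesenchymal transcription factor, had 1 count against 560, a ratio of 761 (136 to 30098). TGFB2, a growth factor, had 5 counts against 2727, a ratio of 741 (317 to 2283). RBMS3, which encodes an RNA-binding protein, had 0 counts against 183, which is at least 82.9-fold higher with a floor of 3 counts over the group. AREG, an EGF-receptor ligand, was the gene that was lower in SK-Hep1. Of the 3 target genes and the 20 of the list, CTGF and AREG were the ones higher in HepG2. Of the 30 Hippo genes, 20 were higher and 7 lower in SK-Hep1 (median 0.76), against 43.9% and 42.8% of all tested genes.

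Among these, FRMD6, an upstream scaffold, stood at 6.71 ± 1.21 CPM in HepG2 NC TuD and 374 ± 12.9 CPM in SK-Hep1 NC TuD. AMOTL1, the paralogue of AMOTL2, stood at 0.625 ± 0.0371 and 75.7 ± 3.30 CPM, in the same direction as AMOTL2. CRB3, an apical polarity protein, had 547 counts in HepG2 NC TuD and 0 in SK-Hep1 NC TuD, at least 134-fold lower. DCHS1, a cadherin that pairs with FAT proteins, had 4 counts against 97. TEAD3, a paralogue of TEAD1, went the other way from TEAD1, at 59.0 ± 3.29 CPM in HepG2 and 10.6 ± 1.18 CPM in SK-Hep1. TEAD2 (-0.51 ± 0.11) and VGLL4 (-0.49 ± 0.08), a repressor that competes for TEAD, were lower as well, while VGLL3, another TEAD cofactor, had 0 counts in HepG2 NC TuD and 1786 in SK-Hep1 NC TuD, at least 809-fold higher.

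**Figure D4:**
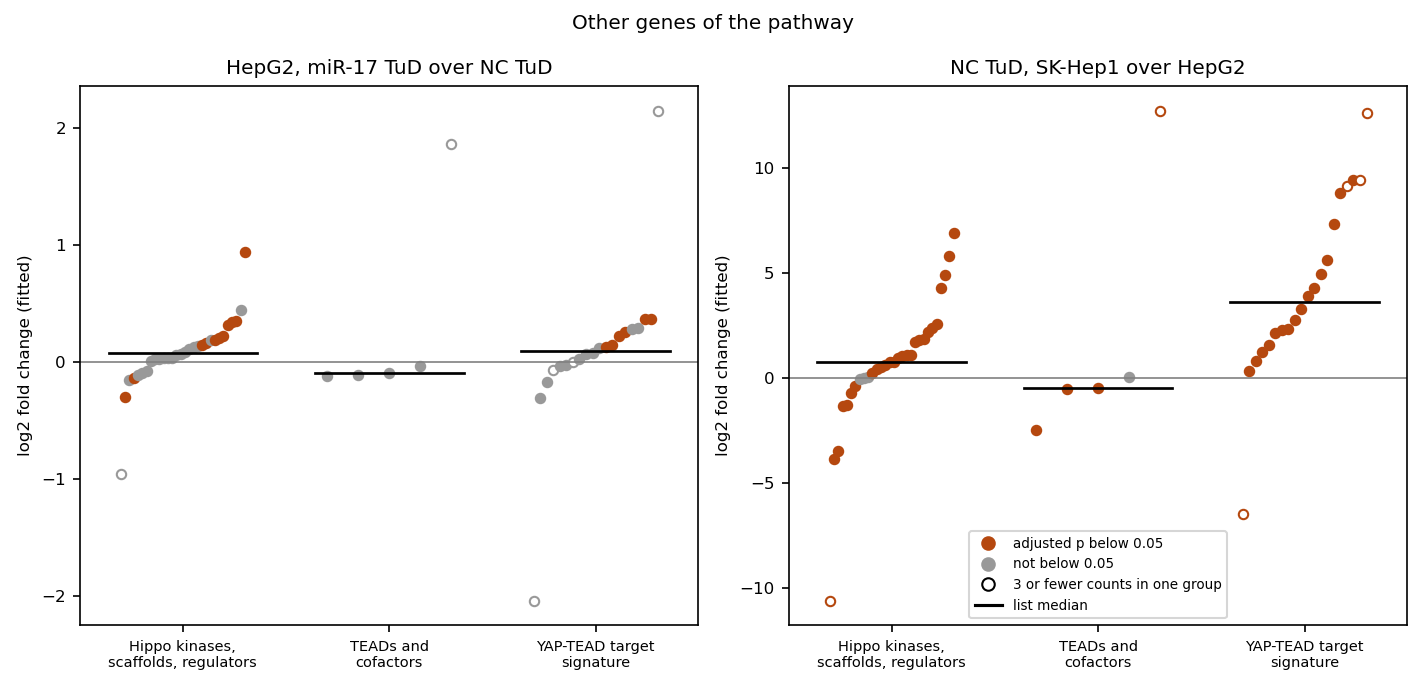
Fitted log2 fold change of the tested genes of 3 pathway lists, for miR-17 TuD over NC TuD in HepG2 (left) and SK-Hep1 over HepG2 in NC TuD (right); orange points passed the test, open points had 3 or fewer counts in a group, so their fitted value is no measure of size, and black lines are list medians. On the right the target signature has a median of 3.60, with 19 of 20 genes above 0.

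The genes whose profiles over the 10 libraries lay closest to CTGF and CYR61 were found among 11994 genes by the root mean square difference of centred log2 CPM. For CTGF they were DUSP22 (0.0566), TBC1D4 (0.0573) and MRPS2 (0.0586). For CYR61 they were CT62 (0.0601), PRR16 (0.0784) and NFATC4 (0.0809). The 10 libraries come from 2 cell lines, so the gap between the lines enters every such profile.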

How the data were processed

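The deposited files are whole-number gene counts, 1 file per library, and 1 matrix of log2 values made by the authors. The tools named in the submitters' processing notes include STAR and HTSeq 0.5.4p5, with hg19 as build. The series text instead gives Bowtie/TopHat, RSEM and a mouse genome; the gene symbols are human. The kit does not mark strand, so reads where genes overlap cannot be assigned by strand. Reads labelled ambiguous made up 0.584% to 0.619% of a library and entered no gene's count. Rows of the counts that name no gene were left out; the largest, reads outside genes, made up 11.6% to 14.1% of a library. The test was edgeR 4.0.16 under R 4.3.3 (filterByExpr, TMM, robust quasi-likelihood fit, 4 group means over all 10 libraries), with Benjamini-Hochberg adjustment over 13349 genes. Errors of fold changes are standard errors. The deposited log2 matrix was tested with limma 3.58.1, and DESeq2 1.42.0 was run as an alternative. Exon lengths came from GENCODE 29 (GRCh38). The scripts were tested on simulated data. The members and lists were chosen with earlier results of these data known. Named genes are the 10 members, up to 4 called genes per pathway list and arm comparison by smallest adjusted p, up to 4 per list by size between lines in NC TuD, and the 3 nearest profiles to CTGF and CYR61. F3 in HepG2, AREG, ALB, FGB, SERPINA1, VIM, FN1, PECAM1 and TEAD4 fall outside that rule and were named after their values were seen. Of the genes this rule names, 1 is not reported here.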

Additional observations from a re-analysis of the deposited data

Results flagged for a closer look

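Among the 10 members and the pathway genes the naming rule gives, the response to the decoy differed between the lines for 3, by the test of the difference itself (SK-Hep1 response minus HepG2 response, edgeR, n = 3 and 2 libraries per arm). Over all tested genes that test called 500 (3.75%), among them 5 of the 30 Hippo genes (FAT1 included) and 1 immediate early gene. CTGF differed by 0.35 in log2, with a fall in HepG2 and a value of 0.12 in SK-Hep1. FAT1 differed by -0.24 (adjusted p = 0.00605), but not past the threshold without SK-Hep1 NC TuD replicate 2 (adjusted p = 0.0887), without SK-Hep1 miR-17 TuD replicate 2 (0.0622) or with the replicate block (0.0677). AXL differed by -0.35 (adjusted p = 0.00519), and did not pass without HepG2 NC TuD replicate 1 (adjusted p = 0.0902) or on the deposited log2 matrix (0.167).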

How the results depend on the processing

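In SK-Hep1, 116 genes were called (89 higher, 27 lower), 49 to 70 when each of its own 4 libraries was left out in turn, 274 with only its own 2 groups fitted (2 members called), and 136 on the deposited log2 matrix, where the split was 60 higher and 76 lower. The difference of responses gave 500 calls, 266 to 613 without 1 library, and 1 member called, or 2 without the filter on low counts (1 to 2 without 1 library). With 8-base seed matches only, 0 members held a site, against 4.53% of genes. Some values changed sign as 1 library was left out: in HepG2 LATS1 (-0.035 to 0.048) and YAP1 (-0.0094 to 0.043), in SK-Hep1 AMOTL2 (-0.0015 to 0.028), AJUBA (-0.050 to 0.0038), AMOT (-0.12 to 1.26) and DOCK5 (-0.031 to 0.0084), and for the difference of responses LATS2 (-0.016 to 0.13), AMOT (-1.05 to 0.32) and F3 (-0.13 to 0.067). Of these, AMOT was not near 0 in the main fit, at 0.39 in SK-Hep1 and -0.54 for the difference of responses. It had 4 counts in SK-Hep1 NC TuD and 5 in SK-Hep1 miR-17 TuD. DOCK5 in SK-Hep1 also turned with RLE size factors (0.0039) and in DESeq2 (0.0038). Causes were not tested.

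Replicate numbers did not pair the HepG2 samples: same-numbered libraries had correlations of 0.065, -0.346 and -0.326. Some differently numbered HepG2 libraries correlated more: 0.399 for decoy library 3 with control library 2, and 0.307 for decoy library 2 with control library 3. The remaining HepG2 pairs ran from -0.118 to 0.075. No fit modelled such links across numbers, and their cause was not tested. In SK-Hep1 the values were -0.086 or 0.086. With 2 libraries per arm these can differ only in sign, so they cannot decide pairing. With the replicate block, calls came to 1872 in HepG2, 58 in SK-Hep1 and 227 for the difference of responses, and members called to 3, 0 and 1. At this depth 3 counts are 0.197 to 0.239 CPM, so genes such as AMOT in SK-Hep1 rest on few reads, and 2 libraries per arm limit what could be called there.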
